A study of Mus musculus with 6 samples.

Results

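The enzymes that make serine and cleave glycine were followed in 2 populations of astroglial precursors sorted from neonatal mouse cerebellum. The 8 genes are Phgdh, Psat1 and Psph of the phosphorylated pathway of serine synthesis, Srr, the racemase that makes D-serine, and Gldc, Amt, Gcsh and Dld of the glycine cleavage system. They were chosen by name as known enzymes of these pathways, and all 8 were found among the 24086 gene symbols of the array, with 16 of its 55681 probes. Psat1 and Psph were higher in cells that carry the surface antigen ACSA-2, Phgdh and Gldc were higher in cells that lack it, and each of these differences was between 1.49-fold and 1.61-fold. Srr, Amt, Gcsh and Dld did not pass the test.

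Cells were sorted with magnetic beads from the pooled cerebella of wild-type mice of either sex, which the labels give as strain CD1 at postnatal days 1 to 3, with 3 samples of 50000 cells per population. The study's methods instead name C57BL/6 as the wild-type background and P0/P1 as the age, and these differences could not be resolved here. The A+/G+ samples, positive for ACSA-2 and for the glutamate transporter GLAST, were taken with beads against ACSA-2 in 1 step. No step selected them for GLAST, and the study counted rare ACSA-2 cells without GLAST with this population. The A-/G+ samples were first depleted of cells that carry L1CAM, ACSA-2, CD45, PSA-NCAM or Ter119, which mark neurons, blood cells and the ACSA-2 cells themselves, and were then taken with an antibody against GLAST. The populations therefore differ in the way they were sorted as well as in the antigen. By the study's flow cytometry neither sort gave a pure population, and the purity was lower for A-/G+. Amplified, Cy3-labeled RNA of each sample was hybridized to 1 array with 1 color. The 3 A+/G+ arrays lay on 1 slide and the 3 A-/G+ arrays on another, so that slide and population cannot be told apart.

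Serine synthesis branches off glycolysis at 3-phosphoglycerate. Phgdh oxidizes this intermediate, Psat1 transfers an amino group to the product from glutamate, and Psph removes the phosphate to leave L-serine. In the brain the pathway is known above all from astroglia and radial glia, which supply serine to neurons. Serine is turned into glycine by the serine hydroxymethyltransferases with transfer of a carbon unit to folate. In the mitochondria glycine can be cleaved by a complex in which Gldc decarboxylates glycine, Gcsh carries the remaining aminomethyl group on lipoate, Amt releases ammonia and passes the carbon unit to folate, and Dld reoxidizes the lipoate. Glycine and D-serine are both ligands of the NMDA receptors.

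The promoters of the 4 enzymes that differed are shown because Phgdh and Psat1, which catalyze consecutive steps, moved in opposite directions. Each sequence is the 250 bases before a RefSeq transcription start on GRCm38.p6, 5′ to 3′ on the strand of the gene, and capitals mark the letters CCAAT or GGGCGG or their reverse complements, ATTGG and CCGCCC. The windows are chr3:98339970-98340219 for Phgdh, chr19:15925060-15925309 for Psat1, chr5:129787254-129787503 for Psph and chr19:30175442-30175691 for Gldc, all on the minus strand.
Phgdh: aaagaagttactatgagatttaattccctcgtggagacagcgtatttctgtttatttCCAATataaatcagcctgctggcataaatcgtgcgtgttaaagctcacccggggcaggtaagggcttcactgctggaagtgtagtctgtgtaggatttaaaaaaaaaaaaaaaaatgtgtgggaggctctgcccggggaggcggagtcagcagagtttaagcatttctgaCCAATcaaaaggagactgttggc
Psat1: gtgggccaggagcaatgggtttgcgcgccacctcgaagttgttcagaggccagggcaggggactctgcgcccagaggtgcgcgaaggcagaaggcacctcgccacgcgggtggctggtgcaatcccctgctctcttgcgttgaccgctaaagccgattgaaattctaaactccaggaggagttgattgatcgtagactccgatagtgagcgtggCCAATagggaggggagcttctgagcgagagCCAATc
Psph: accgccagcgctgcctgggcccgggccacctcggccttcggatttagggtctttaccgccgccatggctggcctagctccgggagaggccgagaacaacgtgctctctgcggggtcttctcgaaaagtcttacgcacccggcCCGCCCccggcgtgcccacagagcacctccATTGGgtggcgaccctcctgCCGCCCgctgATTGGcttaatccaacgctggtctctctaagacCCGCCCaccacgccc
Gldc: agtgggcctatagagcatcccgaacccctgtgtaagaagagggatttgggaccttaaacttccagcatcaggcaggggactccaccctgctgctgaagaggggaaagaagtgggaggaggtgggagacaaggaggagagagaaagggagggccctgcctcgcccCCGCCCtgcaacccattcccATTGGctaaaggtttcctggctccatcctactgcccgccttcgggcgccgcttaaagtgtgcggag
The 8 genes had 9 such windows, since Psat1 has 2 starts, of which the one farther upstream is shown. The letters TTGCATCA, a core of the element read by ATF4, which is a known activator of serine synthesis genes, were in 0 of the 9 windows on either strand and in 0.791% of all 32851 windows. CCAAT was in 7 of the 9 windows and in 33.8% of all windows, and GGGCGG was in 6 of the 9 and in 32.7% of all. These last 2 motifs were picked after the sequences had been seen. A match is a description of letters and not of a bound site.

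Signals are given as normalized log2 values, in which a difference of 1 is a factor of 2, and a difference is the mean of the 3 A+/G+ arrays minus that of the 3 A-/G+ arrays. An enzyme was called different when its adjusted p was at most 0.05 (limma, two-sided, Benjamini-Hochberg over all 55681 probes). Psat1 and Psph were called higher in A+/G+, which is 2 of 8 genes, and Phgdh and Gldc were called higher in A-/G+, also 2 of 8. Taking likewise the brightest probe of each of the 24086 genes, the share called higher was 7.48% for A+/G+ and 5.12% for A-/G+, and 8.95% and 9.98% of the 11340 genes whose signals were well above background on all 6 arrays. Over all probes the shares were 4.65% and 4.64%. The median difference of the 8 genes was 0.29 and that of all probes was -0.04. None of the 8 enzymes also met the limit of a 4-fold difference of medians set in the study's methods, which 1.53% of all probes met for A+/G+ and 0.399% for A-/G+, and the largest difference of medians among their called probes was 2.08-fold, for a probe of Phgdh. In these bulk samples, fewer cells of a type and less RNA per cell cannot be told apart.

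**Figure D1:**
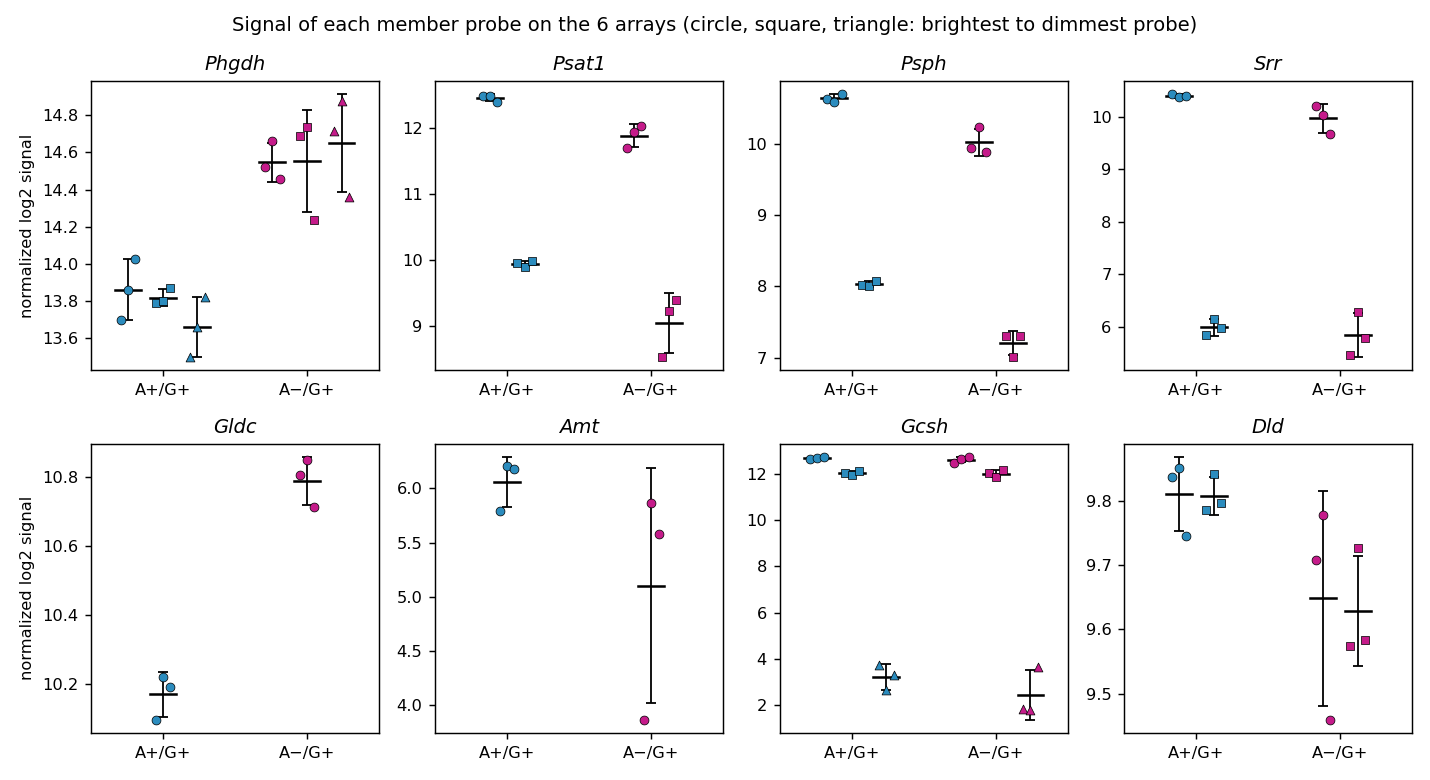
Normalized log2 signal (vertical axis, scaled separately for each gene) of all 16 probes of the 8 enzymes in the 3 A+/G+ arrays (blue) and the 3 A-/G+ arrays (magenta), with means and SDs as bars. All 3 probes of Phgdh and the probe of Gldc lie higher on every A-/G+ array, and both probes of Psat1 and of Psph lie higher on every A+/G+ array.

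Phgdh, the enzyme of the committed step, was higher in A-/G+. The brightest of its 3 probes (mm9, chr3:98117215-98117274) gave 13.70, 13.86 and 14.03 in the A+/G+ samples and 14.52, 14.66 and 14.46 in the A-/G+ samples. Every A-/G+ array thus lay above every A+/G+ array. The mean was 13.86 ± 0.16 in A+/G+ and 14.55 ± 0.11 in A-/G+ (SD, n = 3), a difference of -0.69 (SE 0.11, 95% interval -0.97 to -0.40, adjusted p = 0.0285), or 1.61-fold (1.32 to 1.96). The second probe differed by -0.73 and missed the limit (adjusted p = 0.0512), and the third differed by -0.99 (adjusted p = 0.0319). The 3 probes gave the same direction on all arrays. Leaving out any array but A-/G+ replicate 3 ended the call of the brightest probe, with an adjusted p of 0.0793, 0.115 and 0.0620 without A+/G+ replicates 1, 2 and 3 and of 0.0695 and 0.0744 without A-/G+ replicates 1 and 2, while the difference stayed between -0.77 and -0.60.

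Psat1, the aminotransferase of the next step, was higher in A+/G+. Its brighter probe (chr19:15979622-15979681) gave 12.49, 12.49 and 12.40 in A+/G+ and 11.69, 11.93 and 12.03 in A-/G+. The A+/G+ arrays lay close together and above all A-/G+ arrays, which spread more widely. The difference was 0.58 (SE 0.10, interval 0.31 to 0.84, adjusted p = 0.0375), or 1.49-fold (1.24 to 1.79), between means of 12.46 ± 0.05 and 11.88 ± 0.17. The other probe (chr19:15991586-15991645) gave 9.96, 9.90 and 9.98 against 8.53, 9.22 and 9.39, again without overlap, and its difference of 0.90 did not pass (adjusted p = 0.0961). The lowest of the A-/G+ values with both probes was replicate 1, the array with the lowest intensities, and without it the brighter probe was still called (adjusted p = 0.0392). The call was lost without A+/G+ replicate 1 (adjusted p = 0.127), 2 (0.140) or 3 (0.115) and without A-/G+ replicate 2 (0.0863), and it stood without A-/G+ replicate 3 (0.0283).

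Psph, the phosphatase of the last step, moved the same way as Psat1. Its brighter probe (chr5:130271441-130271500) gave 10.63, 10.59 and 10.70 in A+/G+ and 9.94, 10.24 and 9.89 in A-/G+. The difference was 0.62 (SE 0.11, interval 0.33 to 0.91, adjusted p = 0.0382), or 1.54-fold (1.26 to 1.88). Here too every A+/G+ array exceeded every A-/G+ array. The dimmer probe gave 8.02, 8.01 and 8.07 against 7.31, 7.01 and 7.31, a difference of 0.83 that was called as well (adjusted p = 0.0157). The call of the brighter probe was lost without A+/G+ replicate 1 (adjusted p = 0.125), 2 (0.126) or 3 (0.142) and without A-/G+ replicate 1 (0.0906) or 3 (0.0529), and kept without A-/G+ replicate 2 (0.0235).

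Srr converts L-serine to D-serine. Its brighter probe gave 10.43, 10.37 and 10.39 in A+/G+ and 10.19, 10.04 and 9.67 in A-/G+, and the other probe differed by 0.15 (adjusted p = 0.725). The arrays of the brighter probe did not overlap, but the difference of 0.43 (interval 0.05 to 0.81) did not pass after adjustment (adjusted p = 0.169), and no conclusion on equality follows from that.

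Gldc, the decarboxylase of glycine cleavage, gave the narrowest interval of the 4 called differences. Its only probe (chr19:30172983-30173042) gave 10.10, 10.22 and 10.19 in A+/G+ and 10.80, 10.85 and 10.71 in A-/G+. The lowest A-/G+ array was well above the highest A+/G+ array, and the spread within each population was small. The means were 10.17 ± 0.07 and 10.79 ± 0.07, a difference of -0.62 (SE 0.07, interval -0.79 to -0.45, adjusted p = 0.0120), or 1.53-fold (1.36 to 1.73) higher in A-/G+. The call was lost without A+/G+ replicate 2 (adjusted p = 0.0529) or 3 (0.0605), and kept without any of the other 4 arrays.

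The other 3 proteins of the cleavage system did not pass. Gcsh, the lipoate carrier, gave 12.65, 12.70 and 12.72 in A+/G+ and 12.49, 12.65 and 12.72 in A-/G+ with its brightest probe, so that the populations overlapped. The difference of 0.07 had an interval of -0.13 to 0.27 (adjusted p = 0.614), which allows at most 1.21-fold more in A+/G+ or 1.09-fold more in A-/G+, and its sign turned when the arrays were scaled to their 75th percentile (-0.02). The second probe of Gcsh differed by 0.03 (adjusted p = 0.885), and the third was well above background on only 1 array. Dld, which the pyruvate and 2-oxoglutarate dehydrogenases also use, gave 9.84, 9.85 and 9.75 against 9.71, 9.78 and 9.46, a difference of 0.16 (interval -0.10 to 0.43, adjusted p = 0.442), and its other probe differed by 0.18 (adjusted p = 0.183). Amt, the aminomethyltransferase, was dim, with 5.79, 6.20 and 6.18 in A+/G+ and 3.87, 5.87 and 5.58 in A-/G+, where the low value of replicate 1 was not well above background. Its difference of 0.96 had an interval from -0.53 to 2.44 (adjusted p = 0.421), so that a difference of the size seen for Gldc could not be detected.

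**Figure D2:**
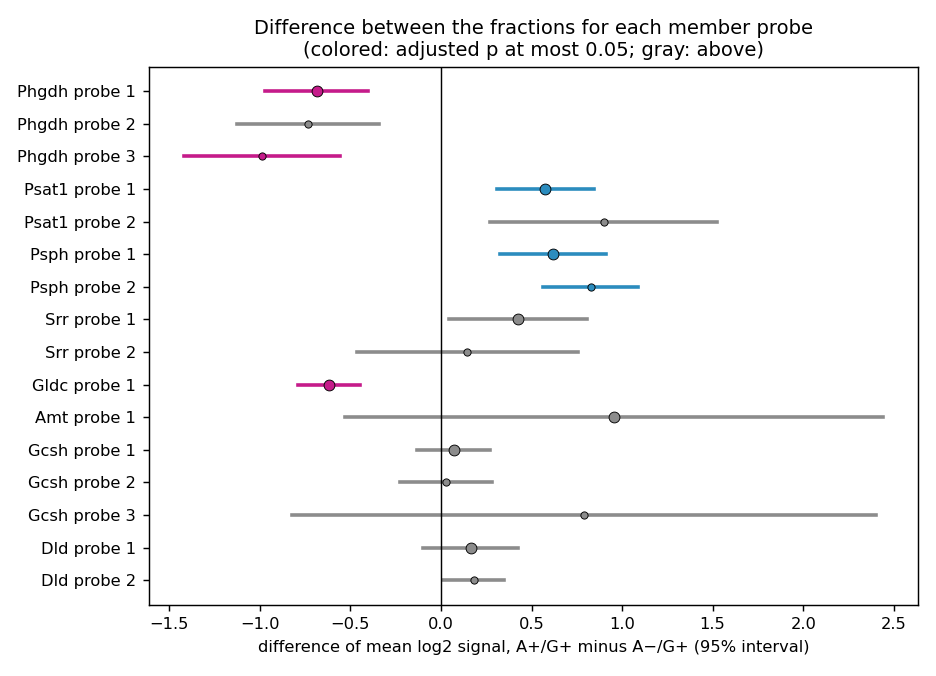
Difference of the mean normalized log2 signal, A+/G+ minus A-/G+, with its 95% interval from limma (horizontal axis) for the 16 probes of the 8 enzymes, with larger points for the brightest probe of each gene and color for adjusted p of at most 0.05. The intervals of Phgdh and Gldc lie below 0, those of Psat1 and Psph above 0, and the brightest probe of Gcsh runs from -0.13 to 0.27.

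With 3 arrays against 3, an exact two-sided permutation test cannot give a p below 0.1, and it gave 0.1 for each of the 4 called enzymes. Under the replacement of quantile normalization by a shift to the 75th percentile the 4 differences were -0.95 for Phgdh, 0.50 for Psat1, 0.59 for Psph and -0.65 for Gldc, none of them called (adjusted p 0.0501, 0.115, 0.0761 and 0.0505). That shift moved the median of all probes, of which at most 26655 were well above background on any array, to -1.02, and moved the median of the 11340 genes well above background on all arrays from -0.07 to -0.10. Relative to those genes the 4 differences were -0.85, 0.60, 0.69 and -0.55, whereas relative to the median of all probes Phgdh (0.07) and Gldc (0.37) turned positive. Under the per-probe test of the study's methods Gldc was called (adjusted p = 0.0263), and Phgdh (0.0602), Psat1 (0.0712) and Psph (0.0740) were not. The medians of the 7 lists described further on kept their sign under this shift and under normexp background correction.

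**Figure D3:**
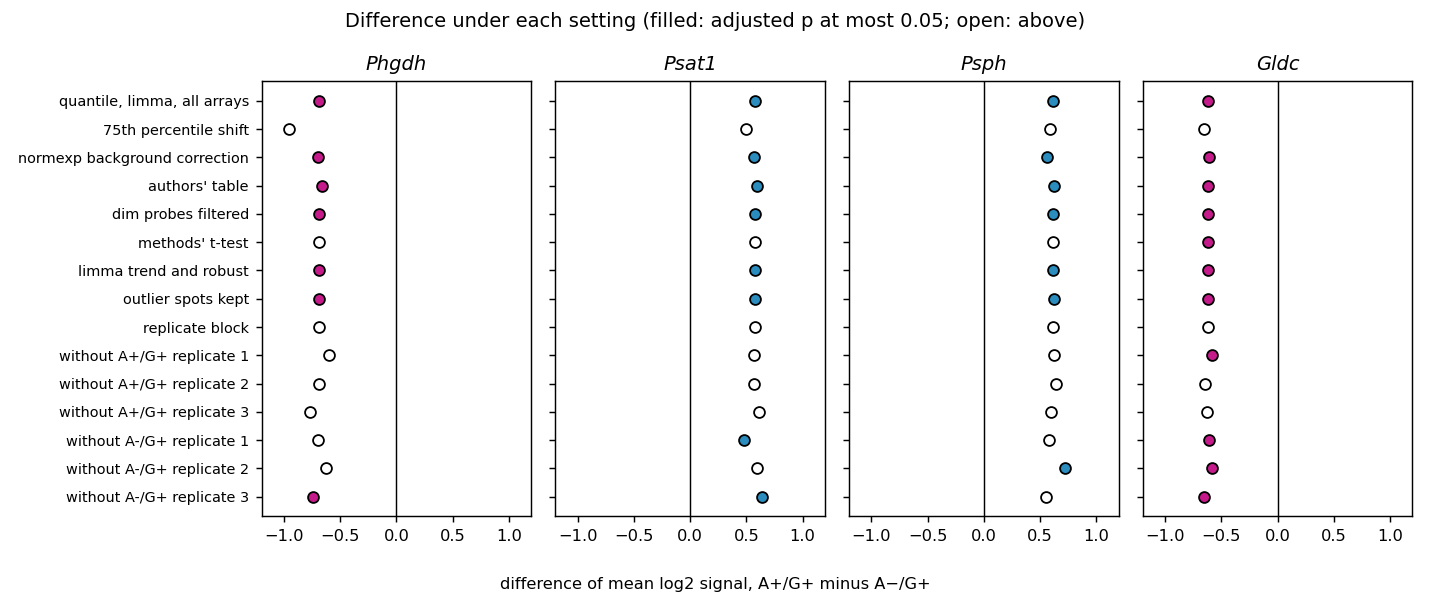
Difference of the mean log2 signal, A+/G+ minus A-/G+ (horizontal axis), of the brightest probe of the 4 called enzymes under the processing as reported (top row) and under each alternative, with filled points for an adjusted p of at most 0.05. No difference crosses 0, but between 4 and 8 of the 14 alternatives leave each enzyme above the limit.

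Because both genes of a ratio are read on the same array, a factor that scales all signals of an array leaves the ratio unchanged. Quantile normalization is not such a factor and can alter a ratio. The 28 ratios between the 8 enzymes were formed from the deposited intensities, a choice made after the differences were known. The log2 ratio of Phgdh to Psat1 was 1.14, 1.29 and 1.54 on the A+/G+ arrays and 2.92, 2.86 and 2.53 on the A-/G+ arrays. It was thus higher on every A-/G+ array, by 1.45 on average, or 2.73-fold. The ratio of Phgdh to Psph was 2.95, 3.17 and 3.20 against 4.69, 4.55 and 4.69, a shift of 2.91-fold in the same direction. Such a shift was not particular to the enzymes of serine synthesis. The ratios of Phgdh to Amt (3.01-fold), Srr (2.54-fold), Dld (2.17-fold) and Gcsh (1.90-fold) were also higher on every A-/G+ array. The ratio of Psat1 to Psph, by contrast, was 1.81, 1.88 and 1.66 against 1.76, 1.69 and 2.16, which overlap and differ by -0.09 (exact permutation p = 0.8, two-sided, 0.862 after Benjamini-Hochberg adjustment over the 28 ratios). For the ratios of Phgdh to Psat1 and to Psph the exact permutation p was 0.1, the smallest possible, and 0.165 after adjustment.

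Within the cleavage system the ratio of Gldc to Gcsh was -2.54, -2.46 and -2.48 in A+/G+ and -1.72, -1.80 and -2.08 in A-/G+. All 3 A-/G+ arrays were higher, by 1.54-fold on average (exact permutation p = 0.1, adjusted 0.165). The ratio of Gcsh to Dld was 2.78, 2.83 and 2.91 against 2.83, 2.89 and 3.36 and overlapped (exact permutation p = 0.4, adjusted 0.487). The ratio of Phgdh to Gldc shifted by -0.30, with no overlap (exact permutation p = 0.1, adjusted 0.165), which was less than the shift of Phgdh against Psat1. After quantile normalization the differences of Phgdh (-0.69) and Gldc (-0.62) were close to each other, so this small shift depends on the use of intensities that were not normalized. A ratio shows unequal change of a pair and not which of the 2 genes changed, and the absolute level of a ratio between probes has no meaning of its own.

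**Figure D4:**
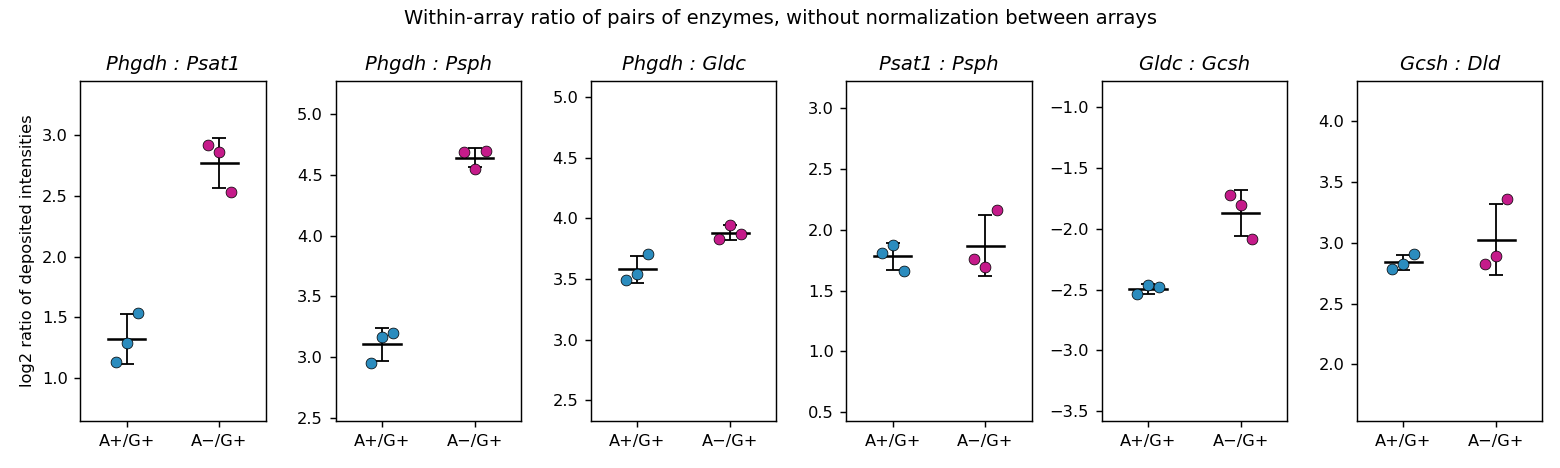
Log2 ratio of the deposited intensities of 6 pairs of enzymes on each array (vertical axes of equal span), with means and SDs as bars. Phgdh against Psat1 and against Psph lies higher on all A-/G+ arrays, Gldc against Gcsh likewise, and the ratios of Psat1 to Psph and of Gcsh to Dld overlap between the populations.

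The genes whose profiles over the 6 arrays were closest to those of the enzymes were sought among 11335 other genes (11336 for Amt) well above background on all arrays, by the root mean square difference of centered log2 profiles. The closest to Phgdh were BC025920 (0.054), Metap1d and Nde1. The closest to Gldc were 9130403I23Rik (0.033), Isoc1 and Traf4. Those closest to Psat1 were Rab4a (0.034), Slc39a11 and Nxn, and those closest to Psph were Vhl (0.036), Nudt10 and Atraid. Srr was nearest to Pacsin3 (0.027), Eif2ak3 and Gdf1, Gcsh to Rragc (0.017), Gm8842 and Rbx1, and Dld to Ankrd32 (0.019), Mrpl45 and Rbm18. The dim Amt had no neighbor as close, the nearest being Deb1 (0.24), Snx3 and Atp6ap1. None of the other 7 enzymes was among the 3 closest genes of any enzyme.

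The genes around these enzymes were read in 7 lists. Of 13 genes that move carbon between serine, glycine and folate, 10 had a higher mean in A-/G+ and the median difference was -0.60, but only Aldh1l1, a folate dehydrogenase and astroglial marker, was called. Aldh1l1 gave 14.82, 14.77 and 14.99 in A+/G+ and 15.51, 15.68 and 15.30 in A-/G+ (difference -0.64, adjusted p = 0.0452), and its call was lost without any 1 array except A-/G+ replicate 3 (adjusted p 0.0222 without that array and 0.0858 to 0.162 without another). The hydroxymethyltransferases that join serine to glycine, cytosolic Shmt1 (-0.60, adjusted p = 0.143) and mitochondrial Shmt2 (-0.62, adjusted p = 0.0760), did not pass. Neither overlapped between the populations, for which the exact two-sided permutation p was 0.1 each, and no conclusion is drawn from that.

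Of 11 transporters of serine and glycine, 3 were called, all higher in A+/G+, with a list median of 0.34. Slc6a9, the glial glycine transporter GlyT1, gave 15.01, 14.83 and 14.91 in A+/G+ and 13.09, 13.13 and 12.64 in A-/G+ (difference 1.96, adjusted p = 0.00638, 3.90-fold). Slc7a10, the transporter Asc-1 that carries D-serine, gave 12.08, 11.82 and 12.02 against 10.47, 9.86 and 9.84 (difference 1.92, adjusted p = 0.0117). Slc38a3, a glutamine carrier, gave 11.70, 11.80 and 11.87 against 10.14, 9.91 and 10.20 (difference 1.71, adjusted p = 0.0039). In all 3 the populations were far apart beside the spread of their arrays, and the difference was larger than that of any of the 4 called enzymes. Slc7a10 lost its call without A+/G+ replicate 1, 2 or 3 (adjusted p 0.0548, 0.0516 and 0.0618). Slc1a4, the serine transporter ASCT1, differed by 0.30 (adjusted p = 0.555), and none of the 6 arrays had a signal well above background for Slc6a5, the neuronal glycine transporter GlyT2.

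Among 16 genes that use or break down serine and glycine, A+/G+ was called higher for 3 and A-/G+ for 1, and the list median was 0.27. Dao, the oxidase of D-serine, gave 5.15, 5.07 and 4.81 in A+/G+, and no A-/G+ array had it well above background. The call (adjusted p = 0.00435) rests on a measured difference of 2.87 that uses those A-/G+ values. With the A-/G+ arrays set to their lowest signal well above background (5.64, 4.95 and 4.03), the means were 1.10-fold apart. The limit of A-/G+ replicate 1 lay above every A+/G+ value, so that array could not have shown a signal equal to that of A+/G+, and the size of the difference is not known. Gatm, which makes the creatine precursor guanidinoacetate from glycine, gave 8.38, 8.14 and 8.26 against 6.46, 6.23 and 6.53 (difference 1.86, adjusted p = 0.00394). Gamt, which methylates that product to creatine, went the other way, with 10.56, 10.80 and 10.64 against 11.41, 11.43 and 11.48 (difference -0.78, adjusted p = 0.0109). The consecutive enzymes of creatine synthesis were thus called in opposite directions. Sdsl, a serine dehydratase-like gene, differed by 1.67 (adjusted p = 0.00467). Gamt lost its call without A+/G+ replicate 3 (adjusted p = 0.0584), and Dao, Gatm and Sdsl kept theirs without any 1 array.

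Of 15 genes of lipoate synthesis and of the other dehydrogenases that use Dld, Pdha1, a subunit of pyruvate dehydrogenase (0.73, adjusted p = 0.00968), and Ogdh of the 2-oxoglutarate dehydrogenase (0.36, adjusted p = 0.0255) were called higher in A+/G+, and the median was 0.22. Ogdh kept its call only without A-/G+ replicate 3 (adjusted p = 0.0240) and otherwise rose to 0.0533 to 0.105. None of 7 glycolytic genes around 3-phosphoglycerate was called, though all 7 means were higher in A+/G+ (median 0.27; 4 of 7 under the 75th percentile shift).

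Of 10 genes of the ATF4 response to amino acid shortage, only Slc7a11, the cystine transporter, was called. It gave 8.75, 8.67 and 8.52 in A+/G+ and 5.63, 6.03 and 4.41 in A-/G+ (difference 3.29, adjusted p = 0.0194), and its call was kept without A-/G+ replicate 2 (0.0331) or 3 (0.00647) and lost without A-/G+ replicate 1 (0.0524) or any A+/G+ array (0.0791 to 0.0852). The signal of Slc7a11 was well above background on only 2 A-/G+ arrays, which limits the size of its difference. Atf4 itself differed by 0.43 and was not called (adjusted p = 0.135), and the list median was 0.67. The last list held 12 subunits of receptors that bind glycine or D-serine, though not each subunit binds them itself (median 0.59). Of these, Grin2d, an NMDA receptor subunit, was called higher in A+/G+ (adjusted p = 0.00452). It was well above background on the 3 A+/G+ arrays only (4.21, 3.77 and 3.85). No fold is given because its signal stayed near the background limit. The limits of A-/G+ replicates 1 and 2 (5.64 and 4.95) lay above all these values. Those arrays could not have shown an equal signal, so the lack of Grin2d signal in A-/G+ says little.

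**Figure D5:**
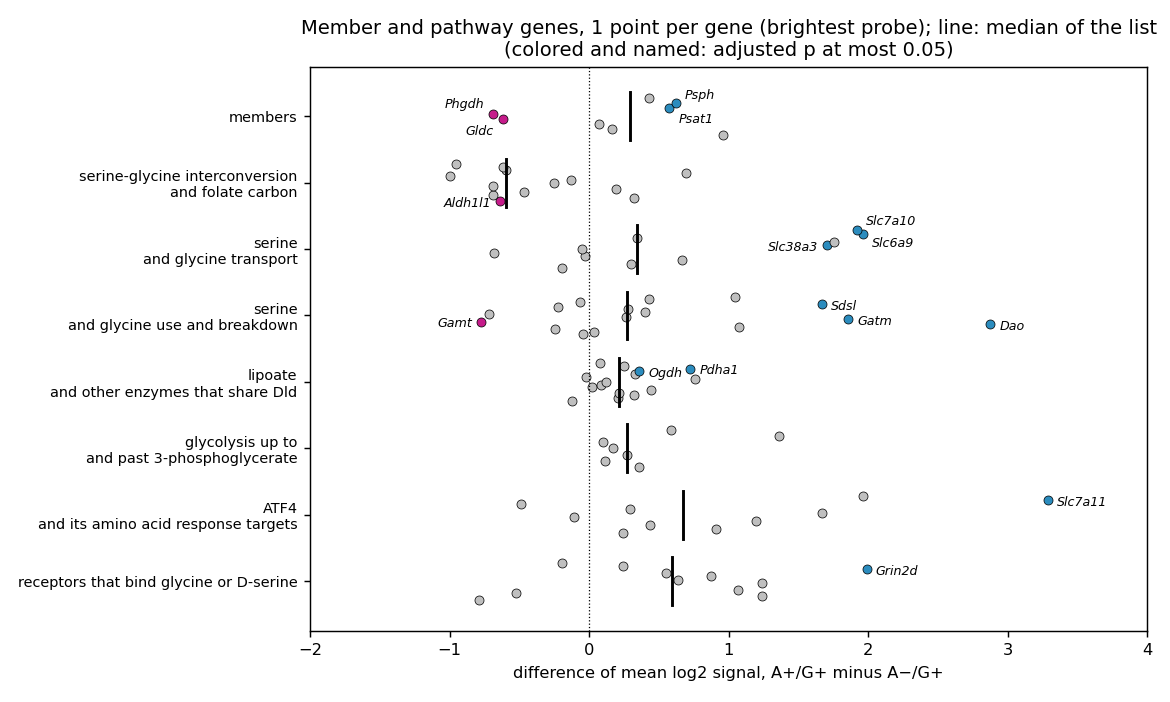
Difference of the mean log2 signal, A+/G+ minus A-/G+ (horizontal axis), of the brightest probe of each gene of the 8 enzymes and the 7 lists, with a bar at the median of each list and names for genes with an adjusted p of at most 0.05 (1 list gene is not drawn). The enzymes lie within 1 of 0, the folate list has a median of -0.60, and the called transporters and Dao, Gatm and Sdsl lie between 1.67 and 2.87. The point of Dao, at 2.87, uses A-/G+ values that were not well above background.

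The populations also differed in markers of cell types, and the part these cells had in the differences of the enzymes was not tested. The 6 arrays all showed the 10 general astroglial markers well above background, and A+/G+ was called higher for 3 of them and A-/G+ for 1. Of 7 markers of Bergmann glia, the unipolar astroglia around Purkinje cells, all 7 were called higher in A-/G+, where their summed log2 signal was 14.13 to 14.72 against 12.06 to 12.34. The study had already reported Mybpc1, Npy, Gria1, Gdf10 and Wif1 of this list as higher in A-/G+ on these same arrays. Their direction was thus known beforehand and is no independent result. Higher in A+/G+ were 5 of 6 markers of motile cilia (11.75 to 12.47 against 7.66 to 9.02), 4 of 6 of Purkinje cells (12.27 to 13.73 against 10.63 to 10.97), 3 of 5 of the oligodendrocyte lineage (13.62 to 13.90 against 10.13 to 11.13) and 2 of 3 of pericytes (10.91 to 11.04 against 8.37 to 9.49). No A-/G+ array had Dnah12 and Spag17 of the cilia or Calb1 and Car8 of Purkinje cells well above background, and no array of either population had Ppp1r17 of Purkinje cells. The lowest signal well above background was higher on the A-/G+ arrays (5.64, 4.95 and 4.03) than on the A+/G+ arrays (3.52 to 3.61). Spag17 gave only 4.32, 4.50 and 5.05 in A+/G+, so its lack of signal in A-/G+ says little. Of 6 endothelial and 3 meningeal markers 1 each was called higher in A+/G+. Of 5 granule lineage markers only Pax6 was called, and it was higher in A-/G+. The other granule markers, Atoh1, Neurod1, Barhl1 and Cbln1, had higher means in A+/G+, and the list median was 1.10. Of 5 division markers 2 were called higher in A-/G+. None of 6 pan-neuronal, 5 microglial, 3 red blood cell or 3 choroid plexus markers was called. Their list medians were 0.48, -0.70, 1.57 and -0.48, and all 3 red blood cell markers had a higher mean in A+/G+. The lack of a call is thus no sign of equal content. The median difference of these markers was -3.08 for Bergmann glia, 4.03 for motile cilia and 1.70 for the oligodendrocyte lineage. That of the 5 division markers, all with a higher mean in A-/G+, was -0.64. The difference of each enzyme was within 1 of 0.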

How the data were processed

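Gene expression was measured in 3 A+/G+ and 3 A-/G+ samples on 1-color Agilent mouse arrays. The authors deposited the scanner output of Feature Extraction 10.7.3.1, with a background-corrected intensity for each of 62976 spots, and a quantile-normalized log2 table with 0 to 17 empty cells per array, used as an alternative. Control spots and outlier-marked spots were left out. Intensities were taken to log2, quantile normalized and averaged per probe, which forces equal distributions on arrays that differed in brightness (75th percentile 332 to 334 in A+/G+ and 56.6, 113 and 251 in A-/G+; 26476 to 26655 against 18340, 21416 and 24730 probes well above background). The number of arrays limits the precision. The unpaired comparison of all 55681 probes used limma 3.58.1 (R 4.3.3), and dim probes were kept. A gene was read from its brightest probe, by the mean over the 6 arrays. The fit was tested on simulated data.

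All 8 enzymes were named with all their probes, together with up to 4 called genes per list, Shmt1, Shmt2, Slc1a4, Slc7a10, Slc6a9, Slc6a5 and Atf4. For each enzyme, the 3 genes with the most similar profiles were also named. The members and lists were chosen with earlier results of these data known, and all 165 list entries were on the array. The counts include 1 list gene that is not reported here. Genes and positions of probes were taken from the annotation in the scanner output, on mm9, for which exons were not analysed here, and 20980 of 24086 symbols were in the RefSeq table of GRCm38.p6. The labels call the samples of a population biological replicates, each from pooled cerebella, and do not say which animals they came from, so that p-values measure the spread between these samples. The alternatives changed the scaling (75th percentile shift), the background correction (normexp, offset 50), the source (the authors' table), the probes (dim probes filtered, or outlier spots kept, or the mean over a gene's probes), the test (the methods' t-test with Benjamini-Hochberg adjustment, limma with trend and robust variance, or the replicate number as a block), the arrays (each left out) and the size limit (2-fold). With each population on its own slide, no slide block was possible.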

Additional observations from a re-analysis of the deposited data

How the results depend on the processing

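Of the 8 enzymes, 7 kept the direction of their difference under all 15 alternatives, and Gcsh, which was not called, turned once, under the 75th percentile shift. The counts of calls were less stable. As reported, the calls for A+/G+ and A-/G+ numbered 2 and 2 enzymes, 10 and 3 genes of the 7 pathway lists, 2589 and 2583 of all probes, and 851 and 222 probes past both limits of the methods. Under the 75th percentile shift these became 0 and 0 enzymes (1 and 2 at an unadjusted p of at most 0.05 by limma), 1 list gene higher in A-/G+, 1227 probes higher in A+/G+ and 938 probes past both limits in A-/G+. With normexp correction there were 18 and 6 list genes and 234 and 48 probes past both limits. The filter on dim probes gave 7 list genes higher in A-/G+ and the mean of all probes 5, and the filter brought Shmt2 past the limit (adjusted p = 0.0429). With normexp correction, by contrast, Shmt2 differed by only -0.36 (limma, adjusted p = 0.537), and under the methods' t-test its adjusted p was 0.129. The methods' t-test called 0 enzymes higher in A+/G+ (2 at an unadjusted p) and 1 in A-/G+, 1 list gene in A-/G+, 1351 and 1197 probes, and 487 and 121 past both limits. A limit of 2-fold gave 1797 and 1340 probes past both limits. Aldh1l1 was not called from the authors' table (adjusted p = 0.0530). Besides the enzymes, the 75th percentile shift ended the calls of Aldh1l1, Gamt and Pdha1 (adjusted p = 0.0501 each), Ogdh (0.228) and Grin2d (0.177), and the t-test those of Aldh1l1 (0.0862) and Slc7a11 (0.0521). Ogdh was also lost with the filter on dim probes (0.0530) and with the mean of its probes (0.519).

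With each array left out in turn, 0 to 1 enzymes were called higher in A+/G+ and 0 to 2 in A-/G+, 7 to 21 and 0 to 7 list genes, 825 to 4469 and 409 to 4622 probes, and 328 to 1448 and 75 to 481 probes past both limits. The number of enzymes past both limits was 0 to 0. Whether the replicate numbers pair the samples could not be decided, because the labels do not give the animals. The deviations of same-numbered arrays over 17951 probes correlated by 0.20, 0.11 and -0.11, and not every array correlated best with its own number. So few and weak correlations show no clear pairing and cannot exclude it. With the replicate number as a block, limma called 0 enzymes, 0 list genes and 0 probes in either direction, with or without the limit of 4-fold. At an unadjusted p it had 2 and 2 enzymes, 21 and 8 list genes, 5354 and 6317 probes, and 1288 and 309 past 4-fold. The adjusted p under the block was 0.121 for Phgdh, 0.143 for Psat1, 0.146 for Psph and 0.0821 for Gldc. Why the calls changed was not tested for any of these settings. Signal over background limits Amt, Dao, Grin2d, Slc6a5, Slc7a11, the dimmer probe of Srr and the third probe of Gcsh.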
